A study of Mus musculus with 2 samples.

Results

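A set of 10 genes that govern the entry of cells into S phase was followed through 2 single-cell libraries from mouse prostate tumors. They were the D-type cyclins Ccnd1, Ccnd2 and Ccnd3, the kinases Cdk4 and Cdk6, the inhibitors Cdkn1a, Cdkn1b, Cdkn2a and Cdkn2b, and the retinoblastoma gene Rb1. They were taken by name, 10 of the 28000 features measured, and all 10 were present in both libraries. The first library came from prostatic adenocarcinoma of a mouse genotype labelled hHGFtg-hMETtg-PBCre, hereafter DoubleTg. The study describes this tissue as holding high-grade prostatic intraepithelial neoplasia beside cancer lesions. The second came from prostatic carcinoma of the genotype labelled hHGFtg-hMETtg-Ctnnb1-PBCre, hereafter TripleTg. Both carried a ubiquitously expressed human HGF transgene, a human MET transgene that stays silent until Cre removes a stop cassette, and Cre under the probasin promoter, which is active in prostate epithelium. TripleTg mice in addition carried a conditional Ctnnb1 allele whose exon 3 is removed by the same Cre, which leaves a stabilized β-catenin. Cells outside the reach of the probasin promoter therefore kept the unrecombined alleles in both genotypes, while human HGF was present throughout. The mice had a mixed C57BL/6 and C3H SCID background. The age of the mice used for these libraries and whether animals were pooled are not given in the sources used here.

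A cell leaves G1 when D cyclins, made in response to growth factor and Wnt signals, bind Cdk4 or Cdk6 and the complex phosphorylates the retinoblastoma protein, which then releases E2F transcription factors. The INK4 proteins encoded by Cdkn2a and Cdkn2b bind the kinases directly, whereas the CIP/KIP proteins p21 (Cdkn1a) and p27 (Cdkn1b) bind cyclin-kinase complexes, so that the balance of cyclins and inhibitors sets whether the cell divides. In prostate epithelium, Ccnd1 is known as a transcriptional target of β-catenin, and p16, p15 and p21 are known as marks of senescent or arrested cells.

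After cells with few genes, many genes or a high mitochondrial share were removed, 10598 DoubleTg cells with a median of 16761 unique molecular identifiers (UMIs) and 9492 TripleTg cells with a median of 20097 UMIs remained. The libraries shared 30 cell barcodes. Clusters were found in each library separately, without the 10 genes or their lists among the clustering genes, and each is called by its 3 leading genes. Luminal-like cells numbered 4934 in DoubleTg and 4693 in TripleTg, basal-like cells 1902 and 1206, and seminal vesicle-like cells 126 and 584. All 7 fixed basal markers were detected in the basal-like cells of both libraries. Their summed level was 12607 counts per 1000000 UMIs (CPM) in DoubleTg and 4472 CPM in TripleTg, with Krt5 at 1168 and 1129 CPM and Trp63 at 16.2 and 61.3 CPM. The 8 luminal markers summed to 10145 and 11858 CPM in luminal-like cells. The 8 Wnt feedback genes stood past 2-fold higher in TripleTg than in DoubleTg luminal-like cells in 8 of 8 cases and in basal-like cells in 7 of 8, which is the direction the labels give. Counts at the 3′ end of Ctnnb1 lie outside exon 3 and cannot show its removal. With 1 library per genotype there was no replicate check and no test. Intervals below are 95% intervals for counting error only, and genotype, library and lesion cannot be told apart.

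In luminal-like cells, 1 of the 10 genes stood past 2-fold higher in TripleTg, Cdkn2b, and 1 stood past 2-fold lower, Ccnd2. Of all 9051 genes with at least 5 CPM in either library, 11.6% were past 2-fold higher and 12.7% past 2-fold lower, and since 1 gene is 10% of the set, the count was close to the background in each direction. In basal-like cells, 3 stood past 2-fold higher in TripleTg, Cdkn2a, Cdkn2b and Cdkn1a, and 1 past 2-fold lower, Ccnd1, beside 14.5% and 13.2% of 9116 genes. In seminal vesicle-like cells none was past 2-fold higher and 3 were past 2-fold lower, Ccnd1, Ccnd2 and Cdk6, beside 4.72% and 18.8% of 7953 genes. There the median log2 ratio of all genes was itself -0.46, and relative to it only Ccnd1 remained past 2-fold, at -1.26. Since reads come from the 3′ end and are not divided by length, levels are compared between groups of cells and not between genes.

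**Figure D1:**
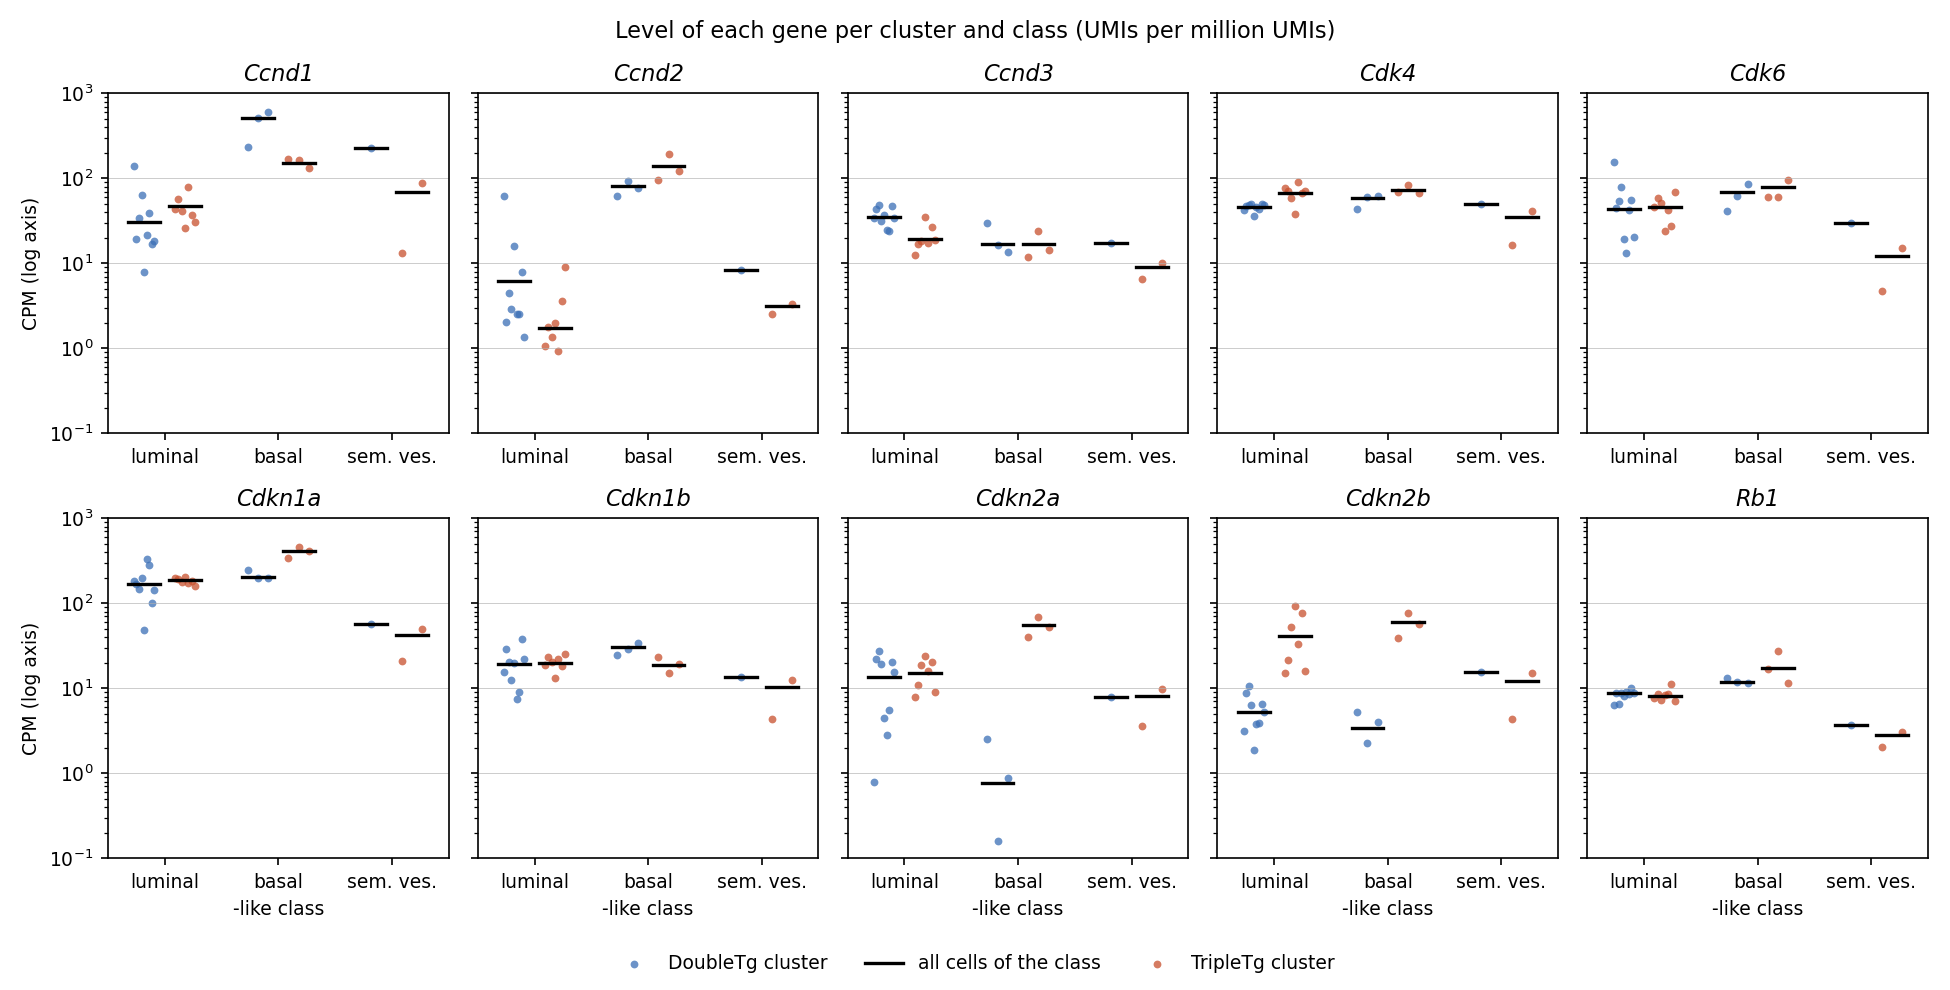
Level of each of the 10 genes, in CPM on a log axis, in every cluster of the luminal-like, basal-like or seminal vesicle-like classes of both libraries; each dot is a cluster and each bar the level of the whole class. The basal-like dots of Cdkn2a lie between 0.162 and 2.52 CPM in DoubleTg and between 40.1 and 69.5 CPM in TripleTg, and Cdkn2b separates the luminal-like clusters of the libraries without overlap.

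**Figure D2:**
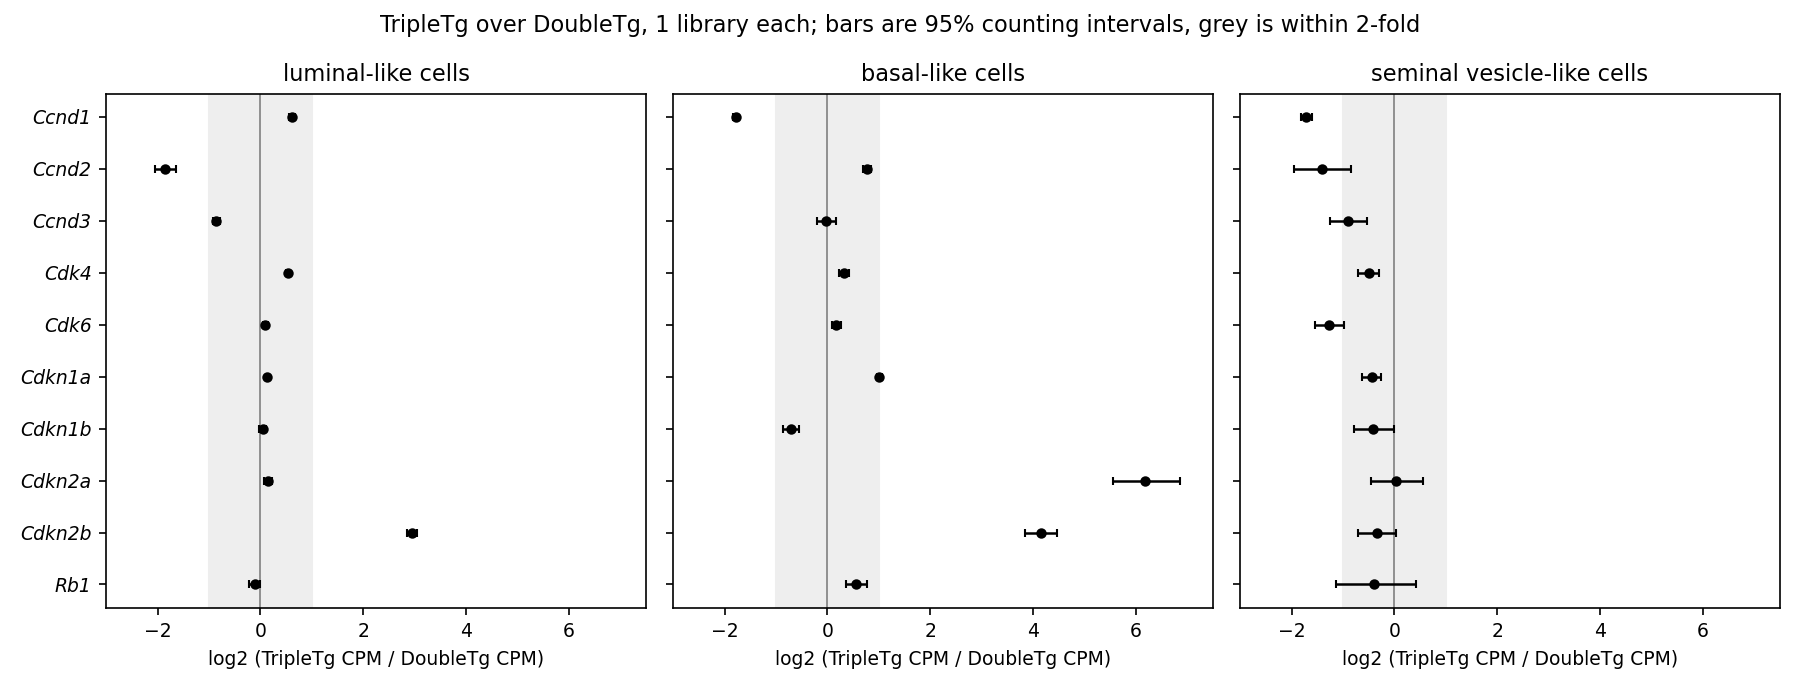
TripleTg over DoubleTg log2 ratio of each gene in the 3 epithelial classes, with 95% counting intervals; the grey band marks ratios within 2-fold. Cdkn2a in basal-like cells reaches 6.17, and Ccnd1 lies at 0.61 in luminal-like cells but at -1.78 in basal-like cells.

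Ccnd1, which encodes cyclin D1, lies at chr7:144929931-144939925 on the minus strand (GRCm38, as are all positions of the 10 genes). It was a gene of basal-like cells in both libraries, but its level differed between the genotypes in opposite directions in the epithelial layers. In luminal-like cells Ccnd1 was at 30.8 CPM in DoubleTg and 47.1 CPM in TripleTg, a log2 ratio of 0.61 (0.56 to 0.66). In basal-like cells it was at 519 CPM in DoubleTg and 151 CPM in TripleTg, a log2 ratio of -1.78 (-1.83 to -1.73). All 3 TripleTg basal-like clusters, at 134, 166 and 171 CPM, lay below the 3 DoubleTg ones, at 235, 519 and 609.6 CPM. The DoubleTg cluster nearest to them, Krt15/Aqp3/Sult5a1, was also the one with most doublet calls, 8.1% of its cells, and the part of these in its level was not tested. Among seminal vesicle-like cells Ccnd1 was at 226 CPM in DoubleTg and 68.6 CPM in TripleTg. The pair of TripleTg seminal vesicle-like clusters differed from each other, with 89.2 CPM in Crisp1/D730048I06Rik/Sprr2f and 13.2 CPM in Sva/Ceacam10/Svs3b, where the 10 most abundant genes held 72.3% of the UMIs.

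Among DoubleTg luminal-like clusters, Ccnd1 ranged from 7.96 CPM in the Sbp/Sbpl/Scgb2b27 cluster to 139 CPM in the Gsdmc2/Cyp2f2/Gsdmc3 cluster of 109 cells. That small cluster also carried 2333 CPM of basal markers, against 326 CPM in all luminal-like cells, with Krt5 at 14.3 CPM, Trp63 at 0 and no doublet call; the part of basal transcripts in its level was not tested. The proximal-type cluster Msln/Aldh1a3/Sprr2a3 held 63.9 CPM and the Msmb-high cluster Msmb/Pcp4/Defb50 18.2 CPM, so that Ccnd1 was higher in the proximal-type than in the Msmb-high cluster. The 7 TripleTg luminal-like clusters lay within 26.0 to 78.6 CPM, and the highest, Lap3/Top2a/Apoc4, was the one with 11.2% cycling cells. Across these 7 clusters the Ccnd1 level was set beside the summed level of the Wnt feedback genes. The cluster with the highest Wnt feedback sum, Gm15308/Gm21002/Defa20 at 505 CPM, held 36.8 CPM of Ccnd1, the next, Lap3/Top2a/Apoc4 at 323 CPM, held the highest Ccnd1, and the one with the lowest sum, Rnase1/Car8/Slc39a4 at 222 CPM, held 57.5 CPM.

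Ccnd2, encoding cyclin D2, lies at chr6:127125162-127152193 on the minus strand. It was low in luminal-like cells and more than 10 times as high in basal-like cells of both libraries, and it went the other way from Ccnd1 in each layer. In luminal-like cells Ccnd2 was at 6.25 CPM in DoubleTg and 1.74 CPM in TripleTg, a log2 ratio of -1.85 (-2.05 to -1.65). The summed basal markers of luminal-like cells were also lower in TripleTg, at 71.9 CPM against 326 CPM (Krt5 at 4.95 and 13.6, Trp63 at 0.257 and 0.194), and their part in the Ccnd2 ratio was not tested. The DoubleTg value rested on few clusters, since Gsdmc2/Cyp2f2/Gsdmc3 held 61.5 CPM and Sbp/Sbpl/Scgb2b27 16.0 CPM, while Msmb/Pcp4/Defb50 held 1.35 CPM. Without the Sbp cluster the ratio was -1.33 and Ccnd2 lay under 5 CPM in both libraries, so that it was no longer counted, and without the Gsdmc2 cluster the ratio was -1.57. In basal-like cells Ccnd2 was at 82.5 CPM in DoubleTg and 140.2 CPM in TripleTg, a log2 ratio of 0.77 (0.69 to 0.84). The 3 TripleTg basal-like clusters, at 96.9, 122 and 194 CPM, were all above the 3 DoubleTg clusters, at 62.2, 76.5 and 93.9 CPM.

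Ccnd3, encoding cyclin D3, lies at chr17:47505051-47599691 on the plus strand and was the D cyclin with the least difference between layers. It was at 35.1 CPM in DoubleTg and 19.4 CPM in TripleTg luminal-like cells, a log2 ratio of -0.86 (-0.92 to -0.80) that stayed within 2-fold. Without the TripleTg Tchh/Fabp4/Cnfn cluster, which held the most Ccnd3 there, the ratio was -1.05 and past 2-fold. In basal-like cells both libraries held about the same level, 17.1 and 16.9 CPM, with a log2 ratio of -0.02 (-0.21 to 0.16). DoubleTg luminal-like clusters ranged from 24.3 to 49.2 CPM and TripleTg ones from 12.7 to 35.2 CPM, so the ranges overlapped.

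The make-up of the D cyclin UMIs therefore differed between the genotypes while their sum in luminal-like cells differed little. The 3 genes together held 72.2 CPM in DoubleTg and 68.2 CPM in TripleTg luminal-like cells. Ccnd1 made up 42.7% (41.9 to 43.5) of these UMIs in DoubleTg and 69.1% (68.2 to 70.0) in TripleTg, whereas Ccnd3 made up 48.7% and 28.4% and Ccnd2 8.67% and 2.55%. In basal-like cells the sum was 619 CPM in DoubleTg and 308 CPM in TripleTg. Ccnd1 made up 83.9% of the basal-like D cyclin UMIs in DoubleTg and 49.0% in TripleTg, and Ccnd2 13.3% and 45.5%.

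**Figure D3:**
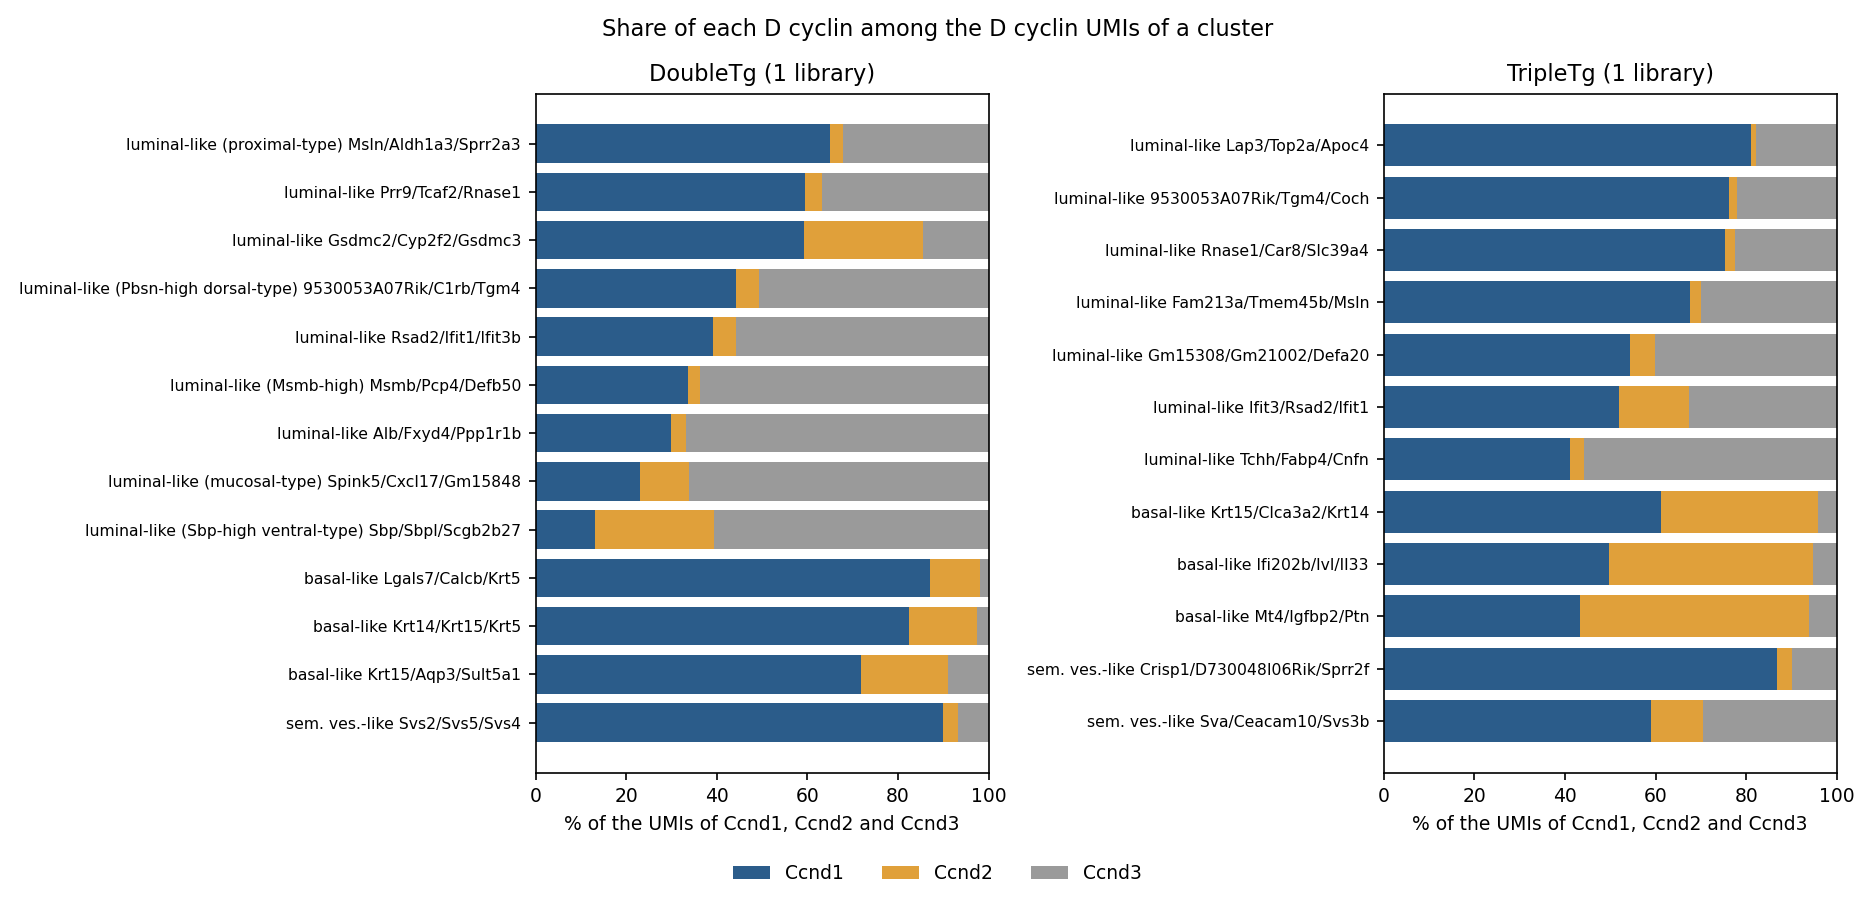
Share of the D cyclin UMIs, in percent, from Ccnd1, Ccnd2 and Ccnd3 in each epithelial cluster of both libraries. Ccnd3 holds a larger part in DoubleTg than in TripleTg luminal-like cells (48.7% against 28.4% over the class), and Ccnd2 a larger part in TripleTg than in DoubleTg basal-like cells (45.5% against 13.3%).

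Cdk4 (chr10:127063534-127067920, plus strand) and Cdk6 (chr5:3341485-3531008, plus strand) encode the kinases that D cyclins activate, and neither passed 2-fold in luminal-like or basal-like cells. Cdk4 was at 46.1 CPM in DoubleTg and 67.0 CPM in TripleTg luminal-like cells, a log2 ratio of 0.54 (0.50 to 0.58). In basal-like cells it was at 58.5 and 73.2 CPM, a log2 ratio of 0.32 (0.23 to 0.42), and the 3 TripleTg clusters (68.3 to 83.1 CPM) were above the 3 DoubleTg ones (43.7 to 61.4 CPM). The most even of the genes across DoubleTg luminal-like clusters, Cdk4 spanned 36.3 to 49.8 CPM there. In TripleTg it spanned 38.4 CPM in Tchh/Fabp4/Cnfn to 91.6 CPM in Lap3/Top2a/Apoc4, the cluster with most cycling cells.

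Cdk6 differed more between clusters than between genotypes. It was at 43.6 and 46.6 CPM in DoubleTg and TripleTg luminal-like cells and at 69.7 and 78.7 CPM in basal-like cells. Within DoubleTg luminal-like cells it ran from 13.5 CPM in the Pbsn-high dorsal-type cluster 9530053A07Rik/C1rb/Tgm4 to 80.0 CPM in the proximal-type cluster and 156 CPM in Gsdmc2/Cyp2f2/Gsdmc3. As for Ccnd1, these last clusters held the highest levels among the luminal-like clusters of the library. In seminal vesicle-like cells Cdk6 was at 29.8 CPM in DoubleTg and 12.4 CPM in TripleTg, and the log2 ratio was -0.80 after the shift of all genes there was taken off. Cdk4 made up 51.4% of the Cdk4 and Cdk6 UMIs in DoubleTg luminal-like cells and 59.0% in TripleTg ones, and 45.6% and 48.2% in basal-like cells.

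Cdkn1a (chr17:29090976-29100727, plus strand) encodes p21, a p53 target that arrests cells after damage or stress. In luminal-like cells it was at 171 CPM in DoubleTg and 187 CPM in TripleTg, a log2 ratio of 0.13 (0.11 to 0.16). In basal-like cells Cdkn1a was at 207 CPM in DoubleTg and 415 CPM in TripleTg, a log2 ratio of 1.01 (0.96 to 1.05) that lay at the 2-fold line. The 3 TripleTg basal-like clusters, at 344, 412 and 460 CPM, did not overlap the 3 DoubleTg ones, at 200.2, 201 and 245 CPM. DoubleTg luminal-like clusters were widely spread, from 48.4 CPM in Sbp/Sbpl/Scgb2b27 to 329 CPM in the Pbsn-high dorsal-type cluster, whereas the TripleTg ones lay between 159 and 206 CPM. The Sbp cluster also spent 49.0% of its UMIs on 10 genes, which lowers the CPM of every other gene, so its low levels of Ccnd1 and Cdkn1a are values relative to those transcripts.

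Cdkn1b (chr6:134920401-134925513, plus strand) encodes p27, which holds quiescent cells in G1. Its level in luminal-like cells was alike in the libraries, 19.3 and 19.9 CPM, with a log2 ratio of 0.04 (-0.03 to 0.11). In basal-like cells Cdkn1b was lower in TripleTg, at 18.6 CPM against 30.4 CPM, a log2 ratio of -0.71 (-0.87 to -0.55) that was within 2-fold. All 3 TripleTg basal-like clusters (14.97 to 23.2 CPM) were below the 3 DoubleTg clusters (24.9 to 34.1 CPM). With each cell thinned to 5000 UMIs the ratio was -0.28. The shares of cells with a UMI then overlapped, at 5.18% to 15.2% in TripleTg clusters and 9.74% to 14.6% in DoubleTg ones. By CPM, basal-like cells of TripleTg thus held more Cdkn1a and less Cdkn1b than those of DoubleTg, the latter by less after thinning. Among DoubleTg luminal-like clusters Cdkn1b was lowest in the Pbsn-high dorsal-type cluster, at 7.44 CPM, where Cdkn1a was highest, and it was highest in the mucosal-type cluster Spink5/Cxcl17/Gm15848, at 38.0 CPM.

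Cdkn2a and Cdkn2b are neighbours on chromosome 4, both on the minus strand, with 11645 bases between them. Cdkn2a (chr4:89274471-89294653) encodes p16Ink4a and, from an upstream start and another reading frame, p19Arf, and its UMIs cannot separate these transcripts because they share their 3′ end. Cdkn2b (chr4:89306299-89311039) encodes p15Ink4b. The RefSeq windows from 250 bases before to 50 bases after each start (GRCm38.p6) are shown for this locus because its pair of genes carried the largest differences between the genotypes among the 10. Of the 10 genes, 7 had such a window. Capitals mark matches, on either strand, to the GC box GGGCGG, a core of SP1-type sites, which occurs in 35.7% of all 32851 windows of this length.
Cdkn2a, upstream start: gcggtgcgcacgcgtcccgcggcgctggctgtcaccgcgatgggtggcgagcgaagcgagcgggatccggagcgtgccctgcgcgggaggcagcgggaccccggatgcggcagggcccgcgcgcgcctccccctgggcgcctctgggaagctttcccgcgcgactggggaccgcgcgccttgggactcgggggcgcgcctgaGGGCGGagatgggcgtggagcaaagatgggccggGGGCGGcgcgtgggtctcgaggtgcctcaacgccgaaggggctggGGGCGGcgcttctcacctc
Cdkn2a, downstream start: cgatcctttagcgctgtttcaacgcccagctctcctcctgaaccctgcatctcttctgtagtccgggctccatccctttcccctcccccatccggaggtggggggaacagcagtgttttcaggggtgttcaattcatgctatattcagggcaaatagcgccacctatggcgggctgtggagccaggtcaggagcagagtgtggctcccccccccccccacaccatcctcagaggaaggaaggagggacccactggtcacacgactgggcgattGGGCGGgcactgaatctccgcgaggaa
Cdkn2b: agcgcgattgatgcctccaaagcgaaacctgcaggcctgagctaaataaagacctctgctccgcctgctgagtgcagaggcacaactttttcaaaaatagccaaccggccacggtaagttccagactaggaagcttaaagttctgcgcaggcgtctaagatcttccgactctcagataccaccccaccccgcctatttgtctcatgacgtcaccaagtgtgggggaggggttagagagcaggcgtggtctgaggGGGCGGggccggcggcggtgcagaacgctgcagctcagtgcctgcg
The windows lie at chr4:89294570-89294869, chr4:89282143-89282442 and chr4:89310983-89311282, all on the minus strand, and hold 3, 1 and 1 matches. None of them holds the TCF/LEF core CTTTGA, found in 16.0% of all windows, or the E2F motif forms TTTCGCGC or TTTGGCGC, found in 0.813% together. This says only that these letters are not in these windows. Other forms of the E2F motif, such as TTTCCCGC, which stands in the Cdkn2a upstream window, were not searched for. Their share of all windows was not counted.

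In basal-like cells Cdkn2a was all but absent from DoubleTg, with 21 UMIs in 1902 cells or 0.772 CPM, and present in TripleTg with 1603 UMIs in 1206 cells or 55.7 CPM. The log2 ratio was 6.17 (5.56 to 6.87), the largest of the 10 genes in the 3 classes compared between the genotypes. Every TripleTg basal-like cluster (40.1, 52.6 and 69.5 CPM) was above every DoubleTg one (0.162, 0.886 and 2.52 CPM). A Cdkn2a UMI was seen in 0.736% of DoubleTg and 42.2% of TripleTg basal-like cells at median depths of 12741 and 21195 UMIs. With each cell thinned to 5000 UMIs, which left out 143 and 89 shallower cells, the shares were 0.171% (0.0352 to 0.498) and 18.0% (15.8 to 20.4). Immune-like cells, taken as a background of free RNA, gave 1.58% and 1.101% after thinning, and 3.42% and 4.99% before it at median depths of 8270 and 10060 UMIs. The DoubleTg basal-like share was thus at or below that background, and the TripleTg share was above it.

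In luminal-like cells Cdkn2a was about level, at 13.5 CPM in DoubleTg and 14.96 CPM in TripleTg, a log2 ratio of 0.14 (0.06 to 0.23). Its order between layers was therefore turned around, with luminal-like above basal-like cells in DoubleTg and basal-like above luminal-like cells in TripleTg. Across DoubleTg luminal-like clusters it ranged from 0.795 CPM in Gsdmc2/Cyp2f2/Gsdmc3 and 2.80 CPM in the Pbsn-high dorsal-type cluster to 27.6 CPM in the interferon gene cluster Rsad2/Ifit1/Ifit3b. Across the TripleTg ones it ranged from 7.91 to 23.8 CPM.

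Cdkn2b was the 1 gene of the 10 past 2-fold higher in TripleTg luminal-like cells, beside 11.6% of all genes. It was at 5.32 CPM in DoubleTg and 41.3 CPM in TripleTg, a log2 ratio of 2.95 (2.86 to 3.05). These levels rested on 1043 and 5936 UMIs. Of the markers of other cell types, 3 lists were also higher in TripleTg luminal-like cells, with seminal vesicle markers at 93.7 and 1343 CPM, immune markers at 82.6 and 886 CPM (Ptprc at 0.245 and 1.59) and fibroblast markers at 29.7 and 159.5 CPM (Col1a1 at 0.383 and 3.83), while basal markers were lower. The immune sum was 1816 CPM in the cluster with most Cdkn2b, and the part of such transcripts in the Cdkn2b level was not tested. The lowest TripleTg luminal-like cluster, at 15.2 CPM, was above the highest DoubleTg one, at 10.6 CPM. In the share of cells with a UMI at 5000 UMIs per cell these clusters overlapped. The shares were 0.576% to 7.69% in DoubleTg and 6.25% to 32.6% in TripleTg. In basal-like cells Cdkn2b was at 3.38 CPM in DoubleTg and 60.4 CPM in TripleTg, a log2 ratio of 4.16 (3.86 to 4.48), with no overlap of the clusters. After thinning to 5000 UMIs a Cdkn2b UMI was seen in 2.64% of DoubleTg and 15.9% of TripleTg luminal-like cells, and in 1.36% and 22.4% of basal-like cells, against 3.60% and 4.19% of immune-like cells. The immune-like cells are a mixed background, since DoubleTg macrophage-like cells gave 7.52% and T and NK-like cells 1.198%, and no T and NK-like class was named in TripleTg. Against these values the DoubleTg shares lay within the background, and both TripleTg shares were above the immune-like and macrophage-like shares of TripleTg. Before thinning the shares were 15.2% and 49.8% of luminal-like cells, at median depths of 35651 and 25671 UMIs, 3.68% and 53.2% of basal-like cells, and 5.38% and 8.11% of immune-like cells.

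The 7 TripleTg luminal-like clusters stood in the same order for both INK4 genes, with Tchh/Fabp4/Cnfn highest (Cdkn2b 92.1 CPM, Cdkn2a 23.8 CPM) and 9530053A07Rik/Tgm4/Coch lowest (15.2 and 7.91 CPM). The Tchh/Fabp4/Cnfn cluster was led by genes of cornified epithelium and hair follicle such as Tchh, Cnfn and Krt73, with all 8 luminal markers detected at a sum of 7861 CPM against 11858 CPM in the whole class. Without it the luminal-like log2 ratios were 2.66 for Cdkn2b and 0.01 for Cdkn2a. The clusters come from 1 library, so the shared order is a description only. In seminal vesicle-like cells neither gene passed 2-fold, with Cdkn2a at 7.94 and 8.13 CPM, a log2 ratio of 0.03 (-0.45 to 0.55), and Cdkn2b at 15.5 and 12.2 CPM, a log2 ratio of -0.35 (-0.70 to 0.02). With the shift of all genes taken off these were 0.50 and 0.12, and the Cdkn2a ratio ran from -0.93 in hMETtg-positive cells to 0.52 with TMM factors. The 4 inhibitors together held 209 CPM in DoubleTg and 263 CPM in TripleTg luminal-like cells, and 241 and 549.9 CPM in basal-like cells. Cdkn2b made up 2.55% of the luminal-like inhibitor UMIs in DoubleTg and 15.7% in TripleTg, and Cdkn1a remained the most counted inhibitor in each, at 81.7% and 71.1%. TripleTg basal-like cells also carried 3262 CPM of seminal vesicle markers against 139 CPM in DoubleTg, 112 against 7.46 CPM of immune markers and 229 against 1245 CPM of fibroblast markers (Ptprc at 3.13 and 0.331, Col1a1 at 5.32 and 0.625). The part of these transcripts in the basal-like Ccnd1, Cdkn1a and INK4 ratios was not tested.

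**Figure D4:**
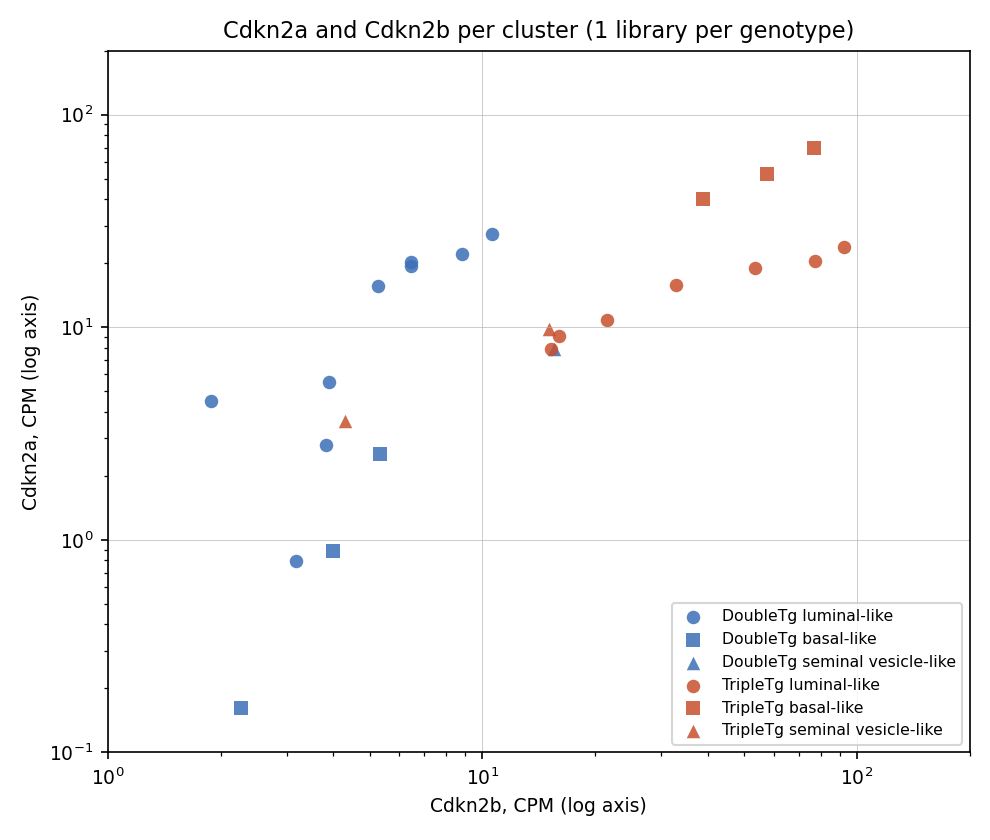
Level of Cdkn2b against Cdkn2a, both in CPM on log axes, in each epithelial cluster of both libraries. The 3 DoubleTg basal-like clusters sit at the low end of both axes (Cdkn2a at most 2.52 CPM), and the 3 TripleTg ones at the upper end (Cdkn2a at least 40.1 CPM, Cdkn2b at least 38.7 CPM).

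Rb1 (chr14:73183673-73325822, minus strand) encodes the retinoblastoma protein, the substrate through which the other members act. It differed little in luminal-like cells, at 8.73 CPM in DoubleTg and 8.09 CPM in TripleTg, a log2 ratio of -0.11 (-0.22 to -0.00). In basal-like cells it was at 11.8 and 17.5 CPM, a log2 ratio of 0.56 (0.36 to 0.77), with the highest cluster, Mt4/Igfbp2/Ptn of TripleTg, at 27.2 CPM. Genes of cornified epithelium such as Sprr1b and Asprv1 were among those leading that cluster, with basal markers at 4173 CPM against 4472 CPM in the class. It also held the highest basal-like Ccnd2, Cdk4, Cdkn1a, Cdkn2a and Cdkn2b. The ratios without it were not computed. In seminal vesicle-like cells Rb1 was under 5 CPM in both libraries.

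Seen by clusters, 1 of the 10 genes lay above in every TripleTg luminal-like cluster against every DoubleTg one, Cdkn2b, and none lay below, over 7 and 9 clusters. Of 10361 genes, 8.26% lay above and 7.04% below in this way. In basal-like cells, with 3 clusters each, 5 lay above (Ccnd2, Cdk4, Cdkn1a, Cdkn2a and Cdkn2b) and 2 below (Ccnd1 and Cdkn1b), beside 21.9% and 30.5% of 9848 genes. The clusters of a library are not replicates of its genotype.

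The layers were then compared within each library, which removes the difference between libraries from the ratio. In DoubleTg, 2 of the 10 genes stood past 2-fold higher in basal-like than luminal-like cells, Ccnd1 at a log2 ratio of 4.08 (4.03 to 4.12) and Ccnd2 at 3.72 (3.62 to 3.82). A further 2 stood past 2-fold lower, Cdkn2a at -4.13 (-4.83 to -3.52) and Ccnd3 at -1.03 (-1.17 to -0.90). Of 9203 genes, 18.5% were past 2-fold higher and 19.9% lower, so the counts were close to the background; the median log2 ratio of all genes was 0.10. In TripleTg, 5 stood past 2-fold higher in basal-like cells and none lower, beside 10.9% and 7.94% of 9009 genes. These were Ccnd2 at 6.33 (6.15 to 6.52), Cdkn2a at 1.90 (1.80 to 1.99), Ccnd1 at 1.68 (1.62 to 1.73), Cdkn1a at 1.15 (1.12 to 1.18) and Rb1 at 1.11 (0.96 to 1.26). The Rb1 ratio leaned on the basal-like cluster Mt4/Igfbp2/Ptn, at 27.2 CPM, since the other basal-like clusters held 11.6 and 16.7 CPM. Whether it stays past 2-fold without that cluster was not tested. Ccnd1 and Ccnd2 were therefore basal-biased in both libraries, Ccnd1 with the larger ratio in DoubleTg and Ccnd2 in TripleTg.

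Cycling cells were those with a UMI for at least 3 of 15 proliferation genes after thinning to 5000 UMIs, a rule that uses none of the 10 genes. They made up 0.671% (0.459 to 0.946) of DoubleTg and 4.93% (4.32 to 5.6) of TripleTg luminal-like cells, and 0.227% and 2.69% of basal-like cells. Over all epithelial-like cells there were 36 cycling cells in DoubleTg and 263 in TripleTg. Their median depth was above that of the others, for example 43969 against 28520 UMIs in DoubleTg, and the median log2 ratio of all genes was 0.17 in DoubleTg and 0.12 in TripleTg.

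In DoubleTg, 1 of the 10 genes stood past 2-fold higher in cycling cells, Cdkn2a at 28.4 against 11.8 CPM, a log2 ratio of 1.26 (0.82 to 1.67), and 1.09 once the shift of all genes was taken off. Another stood past 2-fold lower, Ccnd2 at 5.32 against 15.5 CPM, a log2 ratio of -1.55 (-2.68 to -0.62). Of 9285 genes, 9.2% were past 2-fold higher and 3.17% lower. In TripleTg none stood past 2-fold higher and 1 lower, Ccnd2 at 8.68 against 23.6 CPM, a log2 ratio of -1.44 (-1.75 to -1.15), beside 6.69% and 2.41% of 8830 genes. Ccnd2 was far higher in basal-like than in luminal-like cells. Among luminal-like cells alone it was at or under 5 CPM in both groups of TripleTg, and its DoubleTg ratio was -0.66 (-2.11 to 0.47).

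Cdk4 was near the 2-fold line, at 86.3 against 47.6 CPM in DoubleTg, a log2 ratio of 0.86 (0.61 to 1.09), and 120.1 against 60.4 CPM in TripleTg, a ratio of 0.99 (0.91 to 1.07). With the shift of all genes taken off these were 0.69 and 0.87. Rb1 was also higher in cycling cells of both libraries, at log2 ratios of 0.94 (0.36 to 1.47) and 0.69 (0.43 to 0.93). With each cell thinned to 5000 UMIs, Rb1 was past 2-fold in both, at 1.16 (-0.72 to 2.53) in DoubleTg, where only 3 of 36 cycling cells had a UMI, and at 1.15 (0.49 to 1.74) in TripleTg. The thinned Cdk4 ratios were 0.44 (-0.51 to 1.25) and 0.70 (0.43 to 0.96), and the TripleTg Ccnd2 ratio was -0.91 (-1.61 to -0.29), within 2-fold. Over all epithelial-like cells Ccnd1 was at 0.08 (-0.15 to 0.30) in DoubleTg and 0.43 (0.34 to 0.53) in TripleTg. In luminal-like cells alone it was at 49.6 against 30.6 CPM in DoubleTg and 73.5 against 45.3 CPM in TripleTg, log2 ratios of 0.70 (0.35 to 1.02) and 0.70 (0.59 to 0.81). Cdk6 went the other way from Cdk4 in TripleTg, at 32.7 against 48.3 CPM, a log2 ratio of -0.56 (-0.72 to -0.41). Of the inhibitors, Cdkn1a was at 0.30 in DoubleTg and 0.27 in TripleTg and Cdkn1b at 0.53 and 0.54, but with each cell thinned to 5000 UMIs the DoubleTg ratios were -0.04 (-0.57 to 0.44) and -0.41 (-2.69 to 1.14), the latter with a Cdkn1b UMI in 3 of 36 cycling cells. Cdkn2b was at 0.64 (-0.24 to 1.39) in DoubleTg, where it was -0.45 with the stricter cycling threshold, and at -0.34 (-0.50 to -0.19) in TripleTg.

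**Figure D5:**
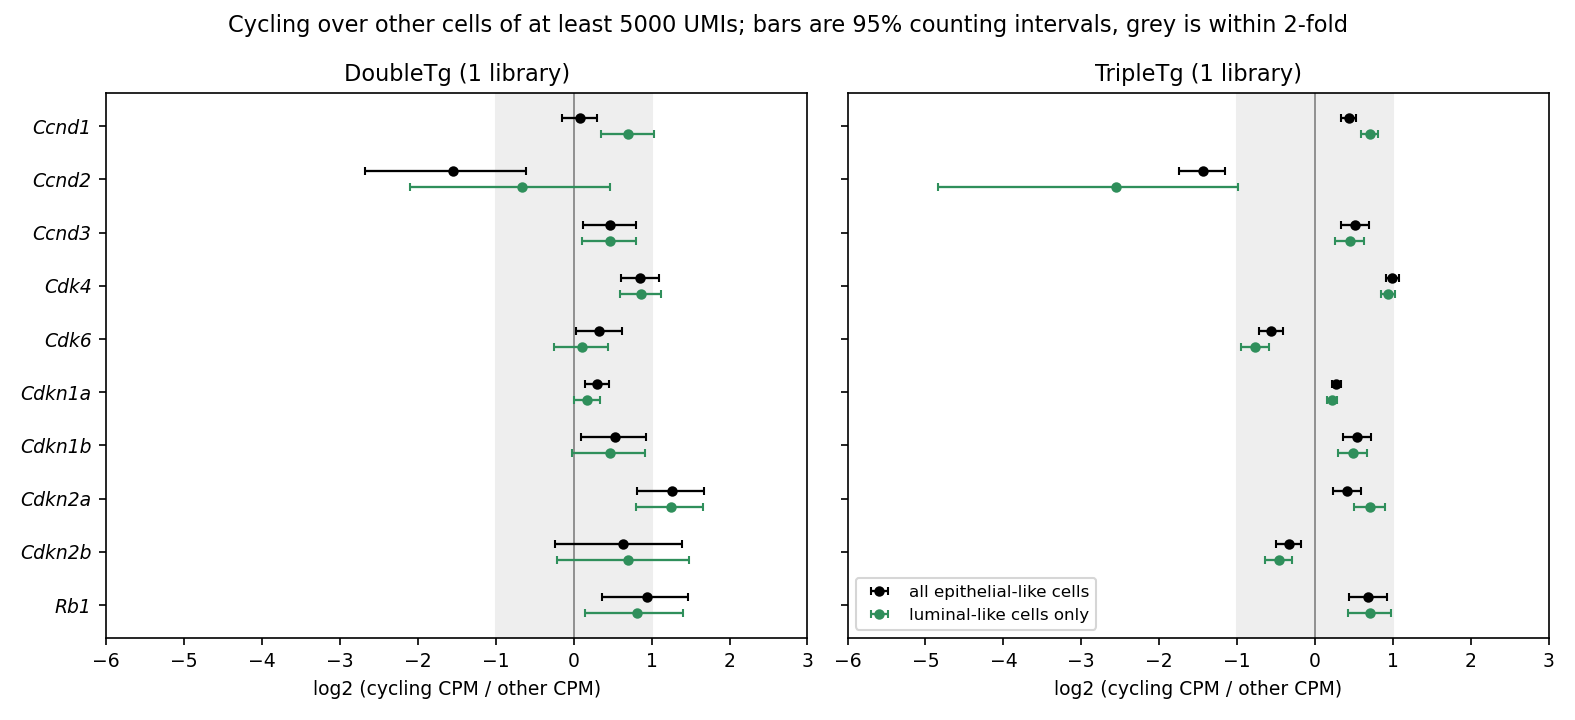
Cycling over other cells, log2 ratio of each gene with 95% counting intervals in both libraries, for all epithelial-like cells in black and luminal-like cells alone in green. Cdk4 lies to the right of 0 in both libraries (0.86 and 0.99 over all epithelial-like cells) and Ccnd2 to the left (-1.55 and -1.44).

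The other genes of the pathway were read from a fixed list of 29 cyclins E and A, CDK partners, E2F and DP factors, pocket proteins and regulators of cyclin D stability. In luminal-like cells 16 of them reached 5 CPM, of which 1 stood past 2-fold higher in TripleTg, the mitotic kinase Cdk1 at 9.81 against 1.62 CPM. The 2 past 2-fold lower were the INK4 inhibitor Cdkn2c at 1.46 against 6.83 CPM and Fbxo31, which encodes an F-box protein that targets cyclin D1 for degradation, at 4.59 against 16.1 CPM. Of all genes there, 11.6% were past 2-fold higher and 12.7% lower. The list's median log2 ratio was -0.12, beside -0.02 for all genes and 0.12 for the 10 genes. In basal-like cells Cdk1 and E2f8, an E2F repressor, stood past 2-fold higher, at log2 ratios of 1.70 and 2.41, and Cdk7 and the CIP/KIP inhibitor Cdkn1c lower, at -1.40 and -1.58. The count was thus 2 higher and 2 lower of 16, beside 14.5% and 13.2% of all genes. The list's median there was -0.09, beside -0.08 for all genes and 0.44 for the 10. For seminal vesicle-like cells, 4 of 13 stood past 2-fold lower and none higher, namely Ccnh, Cdkn1c, Cdkn2d and Fbxo31, at -1.003, -1.55, -1.61 and -1.62, beside the 18.8% of all genes and the median of -0.46 there. With that shift taken off, Ccnh was at -0.54 and within 2-fold.

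In cycling cells the same list was read without Cdk1, which is among the 15 genes that chose those cells. In DoubleTg 12 of 26 were past 2-fold higher and none lower, beside 9.2% and 3.17% of all genes. In TripleTg 13 of 24 were higher and none lower, beside 6.69% and 2.41% of all genes. The list's median log2 ratios were 0.90 in DoubleTg and 1.21 in TripleTg, and the medians of the 10 genes were 0.50 and 0.42. Common to both were Ccna2, Ccne1, Ccne2, Cdk2, Cdkn2c, Cdkn2d, Cks1b, E2f1, E2f8, Rbl1 and Tfdp1, while E2f7 was added in DoubleTg and Cdc25a and E2f2 in TripleTg. Ccna2, the S phase cyclin, was at 28.4 against 0.128 CPM in DoubleTg and 29.8 against 0.642 CPM in TripleTg. Between layers, Cdkn1c and E2f6 were past 2-fold higher and Cdkn2c, Fbxo31 and Rbl2 lower in DoubleTg basal-like cells, while in TripleTg only E2f8 passed, at 2.004.

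Targets of p53 other than Cdkn1a were read beside it from a list of 12. The counts of this list and those below stand beside the shares of all genes past 2-fold higher and lower in TripleTg. These were 11.6% and 12.7% in luminal-like, 14.5% and 13.2% in basal-like and 4.72% and 18.8% in seminal vesicle-like cells. In luminal-like cells 11 reached 5 CPM, of which Phlda3 stood past 2-fold higher in TripleTg, at a log2 ratio of 1.11, and Aen, Ccng1, Eda2r and Sesn2 lower, at -1.06, -1.41, -2.67 and -1.55. In basal-like cells, where Cdkn1a was at 1.01, none of the 12 was past 2-fold higher and Aen, Sesn2 and Tnfrsf10b were lower, at -1.18, -1.19 and -1.63. Aen, Fas and Sesn2 were past 2-fold lower in TripleTg seminal vesicle-like cells, but with the shift of all genes there taken off they were at -0.70, -0.73 and -0.996, within 2-fold. Tnfrsf10b was past 2-fold higher in DoubleTg cycling cells at 1.03, but within 2-fold with the shift of all genes there, 0.17, taken off. Between layers, Perp, Phlda3 and Sesn2 were past 2-fold higher and Trp53inp1 lower in basal-like cells of both libraries, with Tnfrsf10b higher and Ccng1 and Zmat3 lower in DoubleTg alone. Of 15 proliferation genes, 10 reached 5 CPM in luminal-like cells and all 10 stood past 2-fold higher in TripleTg, with a median log2 ratio of 2.99 (Birc5, Ccnb2, Cdca8, Cdk1, Cenpf, Hmmr, Mki67, Top2a, Tpx2 and Ube2c). In basal-like cells 9 of 9 did, with a median of 2.46, the same genes without Ccnb2. From a list of 15 S phase genes, 8 of 14 stood past 2-fold higher and none lower in luminal-like cells, with a median of 1.29. In basal-like cells 1 of 11 stood higher and 2 lower, near the shares of all genes, with a median of -0.37. The difference between the layers was not tested. Between layers, Ube2c was past 2-fold lower in DoubleTg basal-like cells, and in TripleTg basal-like cells Cdca8 was lower and Tpx2 higher.

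For the 7 genes with at least 50 CPM in some epithelial-like cluster, the genes whose log2 level ran most like theirs over the 28 epithelial-like clusters were found among 4656 candidates by Pearson correlation. The clusters share libraries and depth, and these values are a description. For Ccnd1 they were Fgfr2 (0.916), Efna5 (0.903) and Rbms1 (0.887), and for Ccnd2 Ece1 (0.906), Has3 (0.888) and Ltbp1 (0.885). The kinases stood beside different genes, Cdk4 beside Slc25a4 (0.899), Nudt21 (0.896) and Psma5 (0.874) and Cdk6 beside Hrsp12 (0.861), Pdlim1 (0.821) and Grpel2 (0.821). Cdkn1a was closest to Rfwd2 (0.933), Mob1b (0.924) and Dhps (0.914). The INK4 genes did not share a close gene, Cdkn2a being closest to Mxi1 (0.819), Hes6 (0.769) and Mrpl34 (0.760) and Cdkn2b to Defa21 (0.888), Krt36 (0.886) and Mkrn1 (0.882).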

How the data were processed

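The 2 libraries were made with droplet-based 3′ chemistry, 1 per genotype. The deposited matrices hold UMI counts per gene and cell, which the authors made with Cell Ranger 6.0.2 against mm10 with the human transgenes added, per the labels and the study's methods; the header of the DoubleTg matrix names 6.1.1. The tables hold 12072 DoubleTg and 9492 TripleTg cells. Cells were kept with more than 200 genes, fewer than 7000 genes and less than 15% of UMIs from mitochondrial genes, which left 10598 (87.8%) of DoubleTg and all TripleTg cells, whose deposited matrix already met these limits. The study's methods state fewer DoubleTg cells both before and after limits of this kind, so the DoubleTg cells here are not its set. The kept cells hold 256880958 and 229655259 UMIs.

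Each library was clustered with scanpy 1.11.5 (2000 variable genes without the members and lists, 20 components, 15 neighbours, Leiden resolution 1). Clusters were named "-like" from fixed markers, with thresholds set after the clusters were seen. Doublets were called with Scrublet, which marked 2.58% of DoubleTg cells and none in TripleTg, where it did not work, so none were removed, and an alternative without the highest 8% of scores was added. UMIs were summed per class and divided by the class total (CPM). Intervals are exact Poisson for levels, exact Clopper-Pearson for shares and conditional binomial for ratios; PCR copies are removed by the UMIs, and cells are not replicates. A gene counted as past 2-fold when either group had at least 5 CPM; sums under 3 UMIs were set to 3. For 8370 genes, counts were simulated from the DoubleTg luminal-like sums alone, with log2 changes of -3, -2, 2 or 3 set in 200 of them. Of these, 200 of 200 were called, and of the unchanged genes 0 of 8170. Only counting error was simulated, and no change lay near the 2-fold line. This therefore cannot show how often calls near that line, or calls between libraries, are wrong.

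The text names the 10 members, every gene of the pathway, p53 and proliferation lists past 2-fold in a comparison given, and for members reaching 50 CPM the 3 genes with the highest correlation over clusters. The members and lists were chosen with earlier results of these data known. Alternatives were thinning to 5000 UMIs, TMM factors (edgeR 4.0.16), no limits on cells, equal weights for cells, no doublet calls, no cycling cells, hMETtg-positive cells alone, luminal-like cells alone, a stricter cycling threshold and, after seeing the data, other clusterings and single clusters left out.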

Additional observations from a re-analysis of the deposited data

How the results depend on the processing

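In the 5 comparisons run under alternatives (TripleTg over DoubleTg in 3 classes, and cycling over other cells in each library), none turned the direction of a gene past 2-fold; the ratios of basal-like over luminal-like cells and of hMETtg-positive over negative cells were not run under them. Of 50 log2 ratios of the 10 genes, 35 kept their sign in every alternative run, and the other 15 were within 2-fold or under 5 CPM as reported. The count of the 10 genes past 2-fold in luminal-like cells, 2 as reported, was 1 in hMETtg-positive cells and 1 without the Sbp/Sbpl/Scgb2b27 cluster, an alternative chosen after seeing the data; in each case Ccnd2 lay under 5 CPM. It was 3 without the Tchh/Fabp4/Cnfn cluster, where Ccnd3 was added. In seminal vesicle-like cells the count of 3 was 1 with TMM factors, and its genes moved in other settings: Ccnd2 was within 2-fold at 5000 UMIs (-0.92) and with equal weights (-0.81), Cdk6 without the Sva/Ceacam10/Svs3b cluster (-0.97), and Ccnd3 was past 2-fold at 5000 UMIs (-1.18), with equal weights (-1.23) and without the highest doublet scores (-1.06). In cycling cells the DoubleTg count of 2 was 1 in luminal-like cells alone, and the TripleTg count of 1 was 0 in luminal-like cells alone and 2 with at least 5 of 15 proliferation genes. At 5000 UMIs Rb1 passed 2-fold in both libraries and TripleTg Ccnd2 did not. In DoubleTg Rb1 passed in 2 of 7 alternatives. The pathway list in luminal-like cells, with 3 genes past 2-fold, gave 5 at 5000 UMIs per cell and 5 in hMETtg-positive cells. In basal-like cells the count of 4 ran from 3 to 6, with Cdkn1a past 2-fold in 6 of 10 alternatives, and ratios ran from 4.82 to 6.92 for Cdkn2a, 3.75 to 4.33 for Cdkn2b and -1.86 to -1.51 for Ccnd1. The Ccnd1 share of D cyclin UMIs in DoubleTg luminal-like cells, 42.7%, was 44.2% at 5000 UMIs, 45.0% with no limits on cells, 44.5% with cells weighted equally, 40.9% without Scrublet calls, 38.8% without the highest doublet scores, 43.5% at resolution 2, 47.4% without the Sbp cluster and 41.6% without the Gsdmc2/Cyp2f2/Gsdmc3 cluster. The TripleTg share, 69.1%, was 68.1% at 5000 UMIs, 67.4% with equal weights, 67.6% in hMETtg-positive cells and 73.0% without the Tchh/Fabp4/Cnfn cluster. The cause of these moves was not tested.

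No paired analysis was possible because each genotype has 1 library and the labels carry no replicate numbers. Depth limits Cdkn2a in DoubleTg basal-like cells, where 21 UMIs carry the level, and the cycling comparison in DoubleTg, which rests on 36 cells; at 5000 UMIs per cell the Ccnd1 ratio over all epithelial-like cells there, 0.08 as reported, was -0.75 (-1.53 to -0.07).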

Other observations

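Outside the epithelium the 10 genes had other levels. Cdkn2a was higher in DoubleTg fibroblast-like cells, at 112 CPM (823 UMIs in 722 cells), than in any epithelial class of either library, and was at 44.4 CPM in TripleTg ones. The DoubleTg UMIs came from 79 cells, 10.9% of the class, whereas 42.2% of TripleTg basal-like cells had a Cdkn2a UMI. In smooth muscle-like cells it gave 2 UMIs in 66 DoubleTg cells and 152 UMIs in 97 TripleTg cells, or 2.53 CPM (0.307 to 9.15) and 130.1 CPM (110 to 152). Endothelial-like cells carried the D cyclin pair Ccnd1 and Ccnd2 at 199.7 and 175 CPM in DoubleTg and at 249 and 44.9 CPM in TripleTg, with Cdkn1a at 1024 and 966 CPM. Macrophage-like cells held Cdk6 at 110.5 CPM in DoubleTg and 58.8 CPM in TripleTg. The T and NK-like cells named in DoubleTg held the highest Cdkn1b there among these classes, 197 CPM, with Ccnd2 at 178 CPM. These classes hold few cells, and the TripleTg fibroblast-like cells also carried 8971 CPM of seminal vesicle markers.

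A UMI of the human MET transgene was seen in 84.0% of DoubleTg and 34.8% of TripleTg luminal-like cells, at median depths of 35651 and 25671 UMIs, and in 16.9% and 2.70% of immune-like cells, at 8270 and 10060 UMIs. After thinning to 5000 UMIs the luminal-like shares were 69.0% and 10.52%, beside 7.52% and 1.21% of macrophage-like cells and 13.2% of DoubleTg T and NK-like cells. On the thinned counts, hMETtg-positive DoubleTg luminal-like cells held 16.3 CPM of Cdkn2a against 7.85 CPM in negative ones, a log2 ratio of 1.06 (0.64 to 1.49), and 6.68 against 2.98 CPM of Cdkn2b, a ratio of 1.17 (0.50 to 1.90). With the shift of all genes taken off these were 0.97, within 2-fold, and 1.07. The Cdkn2b share of DoubleTg luminal-like cells lay within the immune-like background given above. Ccnd2 was the other way in DoubleTg, at 2.98 against 10.0 CPM. In TripleTg the ratios were 0.44 (-0.06 to 0.91) for Cdkn2a and 0.55 (0.27 to 0.82) for Cdkn2b. TripleTg Ccnd2 was under 5 CPM in both groups, at 2.92 against 1.37 CPM, a ratio of 1.09 (-0.35 to 2.32). The share of hMETtg-positive cells ran from 23.9% to 94.99% across DoubleTg luminal-like clusters, so these values mix clusters, and the part of clusters in them was not tested.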
